A study of Rattus norvegicus with 18 samples.

Results

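The guanylate-binding proteins Gbp2, Gbp4 and Gbp5 and the immunity-related GTPases Igtp, Irgm and Ifi47 were measured in cortical collecting ducts of the rat, segments of the kidney tubule that set the final salt, acid and water content of urine. These 6 genes were taken by their symbols from a table of 32883 gene rows, and each symbol matched 1 row. All groups were male Sprague-Dawley rats, free of pathogens before the experiment. The Vehicle group received normal saline and the LPS group lipopolysaccharide, the outer membrane glycolipid of Gram-negative bacteria, both injected into the peritoneum, and ducts were dissected by hand 3 h later. Neither the dose of LPS nor the age of the animals is stated in the sources used here. Each group had 3 numbered samples that the design calls paired, and each sample had 3 libraries, so 18 libraries entered in all. What a pair shares is not stated, and whether a numbered sample is 1 animal is not stated either, so p-values rest on the spread of these samples, which may be partly technical.

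Both families are interferon-inducible GTPases that act inside the cell. Guanylate-binding proteins are large GTPases of the dynamin superfamily that assemble into coats on bacteria and on vacuoles holding microbes, bind bacterial LPS and help caspases of the inflammasome pathway to sense it. Immunity-related GTPases are smaller. Irgm and Igtp belong to their regulatory subfamily, which sits on membranes of the host and restrains the effector members, and Ifi47 is an effector type that loads onto vacuoles. Transcription of both families in other cells is known to be driven by interferon, in part through the interferon regulatory factors (IRF proteins), which bind short DNA elements near the gene's start.

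The promoters of the 6 genes are shown first because all 6 hold a match to such an element close to the annotated start. Sequences are from RefSeq on the rat build GRCr8, which differs from the build of the expression table, and every member matched. Each stretch has 80 bases and is written 5′ to 3′ on the gene's own strand. Capitals mark the run of bases matching the IRF element AANNGAAA or the longer interferon-stimulated response element (ISRE), taken as GAAA followed by any 2 bases and a second GAAA, on either strand. Each ISRE match contains an IRF element match, so the counts of the 2 motifs overlap.
Gbp2: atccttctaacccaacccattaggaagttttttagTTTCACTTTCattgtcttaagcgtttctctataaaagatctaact
Gbp4: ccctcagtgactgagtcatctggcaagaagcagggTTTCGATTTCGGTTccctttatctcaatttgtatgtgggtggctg
Gbp5: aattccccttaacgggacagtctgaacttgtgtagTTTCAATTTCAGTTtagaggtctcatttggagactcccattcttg
Igtp: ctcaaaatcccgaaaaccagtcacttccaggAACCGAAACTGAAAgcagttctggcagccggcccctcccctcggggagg
Irgm: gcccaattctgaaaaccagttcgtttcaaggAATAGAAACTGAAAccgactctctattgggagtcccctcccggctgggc
Ifi47: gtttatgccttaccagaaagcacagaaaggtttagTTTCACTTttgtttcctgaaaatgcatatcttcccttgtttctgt
On GRCr8 these stretches lie at chr2:234005661-234005740 (plus strand), chr2:233978441-233978520 (plus) and chr2:233910908-233910987 (plus) for the 3 guanylate-binding proteins. They lie at chr10:42874909-42874988 (plus), chr10:33742568-33742647 (minus) and chr10:33798659-33798738 (plus) for the other 3. Counting the annotated start as position 1, with no position 0, the ISRE match spans -31 to -22 in Gbp2, -10 to -1 in Gbp4 and -56 to -47 in Gbp5. In Igtp it spans -103 to -94 and in Irgm -34 to -25. Ifi47 has the IRF element at -50 to -43 and no match to the longer ISRE in its window.

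Over the whole RefSeq windows, from 250 bases before to 50 bases after the start, the IRF element matched in 6 of the 6 members and in 26.4% of all 33469 windows. The ISRE matched in 5 of 6 members, all but Ifi47, and in 3.92% of all windows. The gamma-activated site (GAS, TTCNNNGAA) matched in Igtp, Irgm and Ifi47, against 8.87% of windows. The Igtp and Irgm GAS matches share bases with an IRF element match. The kappaB motif, the site type of NF-kappaB, matched in Gbp5, Irgm and Ifi47 and in 7.51% of windows, and the AP-1 motif TGANTCA matched in Gbp2 and Gbp4 and in 7.33%. The guanylate-binding protein promoters therefore held no GAS match and the immunity-related GTPase promoters no AP-1 match in these windows. At 8.87% and 7.33% of all windows, no match in 3 windows is the usual outcome. Sites that depart from the pattern would not be found. The motifs were chosen after the sequences had been seen, and a match is a description of the letters.

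**Figure D1:**
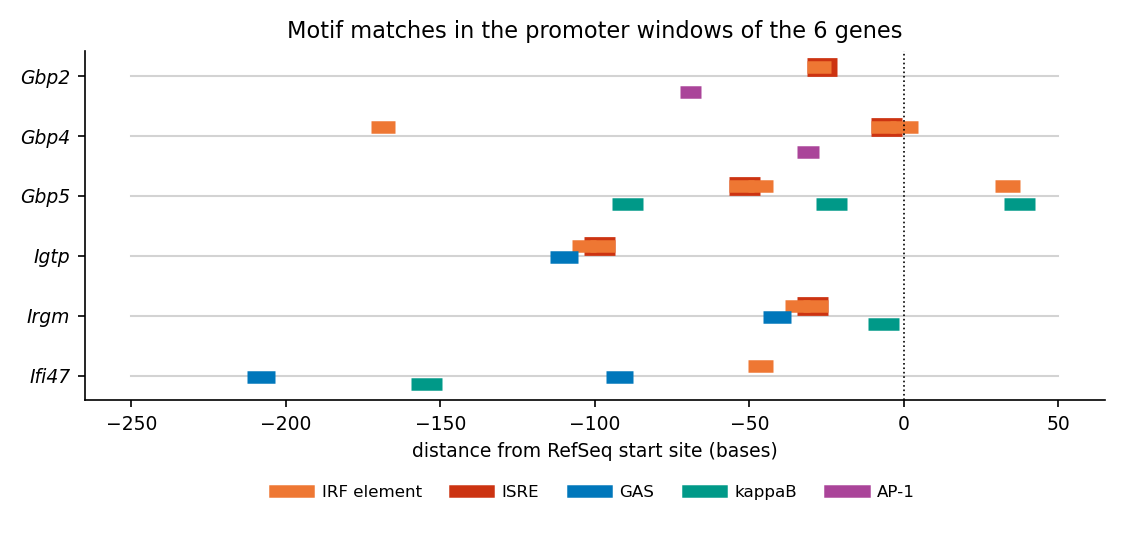
Positions of motif matches in the 300-base promoter window of each member, with distance from the annotated start in bases on the horizontal axis. All 6 promoters carry an IRF element match, which is part of an ISRE match in 5 of them.

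In the map of promoter matches, every ISRE match and the single IRF element of Ifi47 lie upstream of the start. None of these matches was tested as a binding site.

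All 6 genes rose with LPS. Among the 12393 genes tested, 7.17% were called higher and 22.2% lower at an adjusted p under 0.05 (limma, Benjamini-Hochberg over all genes tested). That split depended on the scaling of the libraries, being 889 higher and 2757 lower on the deposited scale. Median-ratio scaling gave 851 higher and 458 lower, whereas quantile normalization gave 797 and 558. For every member the lowest LPS library was above the highest Vehicle library, so the 3 LPS samples were also all above the 3 Vehicle samples. Among all tested genes, 9.88% had 3 LPS samples that were all above the 3 Vehicle samples. The share of all genes without overlap of single libraries was not worked out. Gbp4 and Gbp5 were under 1 TPM in Vehicle and passed the filter of a mean of at least 1 TPM only through the LPS group, so their place among the tested genes depended on their being high there. TPM is a relative abundance corrected for transcript length, so levels can be set beside each other across genes. Log2 changes are of TPM plus 1, averaged over the 3 libraries of a sample, and so come out smaller than the ratio of levels for genes near 0. In bulk ducts, more cells of a type and more RNA per cell cannot be told apart. None of the 6 members was called (limma) when libraries were summarised by their median (adjusted p from 0.0545 to 0.0790), when no filter was applied (0.0501 to 0.101) or without numbered pair 3 (0.196 to 0.231), although each had an unadjusted p under 0.05 there.

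**Figure D2:**
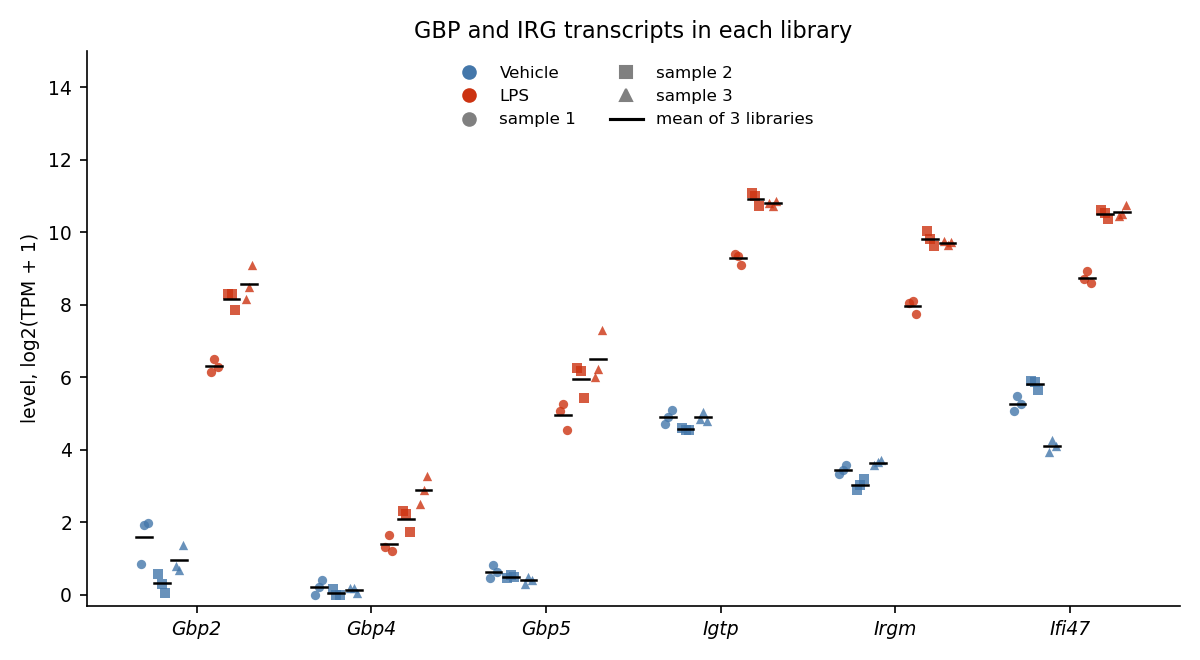
Level of each of the 6 genes in all 18 libraries as log2(TPM + 1), with colour for the group, symbol shape for the numbered sample and a line at the mean of the 3 libraries of a sample. No LPS library overlaps a Vehicle library for any member, and LPS sample 1 sits below LPS samples 2 and 3.

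The plot of levels by library shows the same arrangement for all 6 genes, with the immunity-related GTPases starting from higher Vehicle levels than the guanylate-binding proteins.

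Gbp2 encodes a guanylate-binding protein that carries a lipid anchor. The table's annotation line for its row reads guanylate-binding protein 1, so the paralog measured is uncertain. Its level was 2.19, 0.26 and 0.977 TPM in Vehicle samples 1, 2 and 3. It was 78.7, 285 and 395 TPM in LPS samples 1, 2 and 3. Every LPS sample was far above every Vehicle sample, LPS 1 was the low one, and Vehicle was uneven, with sample 1 the high one. The mean went from 1.14 ± 0.977 (SD, n = 3) to 253 ± 160 TPM (SD, n = 3). The log2 change was 6.72 (SE 0.567, limma adjusted p = 0.00105), which placed Gbp2 at rank 14 among the 12393 tested genes ordered by rise.

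Gbp5, which promotes inflammasome assembly in macrophages, was nearly silent in Vehicle. Its level was 0.567, 0.413 and 0.317 TPM in Vehicle 1, 2 and 3. In LPS it was 30.8, 62.6 and 97.9 TPM in the same order. The groups were apart by a wide margin, with LPS 1 lowest and LPS 3 highest. The log2 change was 5.29 (SE 0.343, limma adjusted p = 0.000399), at rank 39. With a pseudocount of 0.1 in place of 1 the change was 6.74, and with 5 it was 3.48.

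Gbp4 was the low member. It was measured at 0.16, 0.0367 and 0.1 TPM in Vehicle 1, 2 and 3, and 3 of those 9 libraries list it at 0. LPS brought it to 1.65, 3.32 and 6.59 TPM. The LPS samples again followed the order 1, 2, 3 and none reached the Vehicle range. Its log2 change of 1.99 (SE 0.352, limma adjusted p = 0.0133, rank 303) depends strongly on the pseudocount, being 4.24 with 0.1 and 0.75 with 5. The ratio of mean levels was 39.0 for Gbp4, against 221 for Gbp2 and 147 for Gbp5. For Igtp, Irgm and Ifi47 it was 54.2, 69.4 and 31.25.

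Igtp, a regulatory immunity-related GTPase found on the endoplasmic reticulum and on lipid droplets, was already present without LPS. Its Vehicle levels were 29.0, 22.6 and 28.8 TPM, the evenest of the 6 genes relative to their mean. Its LPS levels were 624, 1952 and 1786 TPM. LPS 2 and 3 were close to each other and LPS 1 was well below both. The log2 change was 5.55 (SE 0.349, limma adjusted p = 0.000389), at rank 33.

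Irgm, the other regulatory member, known for its ties to autophagy, followed Igtp at a lower level. It measured 9.94, 7.20 and 11.5 TPM in Vehicle and 250, 905 and 836 TPM in LPS. The order of the LPS samples was that of Igtp, with sample 2 highest and sample 1 lowest. Its log2 change was 5.79 (SE 0.390, limma adjusted p = 0.000428), at rank 28.

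Ifi47, the effector type, had the highest mean level of the 6 genes in Vehicle and the widest scatter there among the 3 immunity-related GTPases. Its Vehicle levels were 37.8, 54.9 and 16.2 TPM. Its LPS levels were 428, 1454 and 1521 TPM. Vehicle 3 was the low control, and LPS 1 was the low treated sample. The log2 change was 4.88 (SE 0.486, limma adjusted p = 0.00189), at rank 51. The change within numbered pairs ran from 3.47 in pair 1 through 4.70 in pair 2 to 6.47 in pair 3. Both groups were uneven, with an SD of log2 levels between samples of 0.871 in Vehicle and 1.04 in LPS.

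LPS sample 1 was the lowest treated sample for all 6 genes. Relative to it, LPS 2 was 2.01 to 3.63 times as high and LPS 3 was 2.86 to 5.02 times as high over the members. The spread between LPS samples was larger than that between libraries of 1 sample for each gene. For Igtp the SD of log2 levels was 0.915 between LPS samples and 0.0719 to 0.188 between libraries inside a sample. For Gbp5, the member with the widest range of libraries inside samples, the same SDs were 0.785 and 0.375 to 0.698.

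The order of levels was the same in the 3 LPS samples, with Igtp highest, then Ifi47, Irgm, Gbp2, Gbp5 and Gbp4. Across samples, however, each neighbouring pair in that order overlapped in its range of sample levels, except Gbp5 and Gbp4. Vehicle 3 had the same order. In Vehicle 1 and 2 Ifi47 was above Igtp, and in Vehicle 2 Gbp5 was also above Gbp2. Within each sample, Ifi47 was 1.304, 2.42 and 0.562 times Igtp in Vehicle 1, 2 and 3, and 0.687, 0.745 and 0.852 times Igtp in LPS 1, 2 and 3. The Igtp to Irgm ratio was steadier. It was 2.92, 3.14 and 2.50 in Vehicle and 2.50, 2.16 and 2.14 in LPS.

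The sums of the 3 guanylate-binding proteins and of the 3 immunity-related GTPases did not gain equally. That describes these 6 genes and not the whole families. By ratio of mean levels Gbp4 rose 39.0-fold, below Igtp (54.2) and Irgm (69.4) and above Ifi47 (31.25). Among the relatives given below, RGD1305184, MGC105567 and MGC108823, annotated as inducible GTPases, rose 601-, 203- and 184-fold, while Irgq was not called. The 3 guanylate-binding proteins summed to 2.92, 0.71 and 1.39 TPM in Vehicle and to 111, 350 and 499 TPM in LPS. The 3 immunity-related GTPases summed to 76.7, 84.8 and 56.6 TPM in Vehicle and to 1302, 4311 and 4143 TPM in LPS. The guanylate-binding share of the 6 genes was therefore 3.67%, 0.831% and 2.40% in Vehicle and 7.86%, 7.52% and 10.8% in LPS, with no overlap. Together the 6 genes made up 0.00744% ± 0.00145 (SD, n = 3) of all TPM in Vehicle and 0.357% ± 0.187 (SD, n = 3) in LPS.

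Inside the numbered pairs, the log2 change of Gbp2 exceeded that of each other member in all 3 pairs, and the change of Gbp4 was below that of each other member in all 3. Irgm changed by more than Igtp in all 3 pairs, by 0.13, 0.42 and 0.15 on the log2 scale. All remaining pairs of members changed order between numbered pairs. These are descriptions on the log2(TPM + 1) scale, on which low genes such as Gbp4 are compressed. By ratio of levels the order differed. In pair 2 Gbp4 rose 90.6-fold, against 86.2 for Igtp and 26.5 for Ifi47, and in pair 3 65.9-fold, against 61.9 and 93.8. Gbp4 was lowest in pair 1 alone, at 10.3-fold. In pair 1 Gbp5 rose 54.3-fold and Gbp2 35.9-fold, whereas Gbp2 had the highest ratio in pairs 2 and 3. With 3 pairs no separate test of them was made.

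One library carried much of the guanylate-binding signal of LPS sample 3. Library 3 of that sample gave 541 TPM for Gbp2, against 286 and 357 in libraries 1 and 2. It gave 157 TPM for Gbp5, against 62.9 and 73.6, and 8.70 TPM for Gbp4, against 4.70 and 6.36. Those 3 values were the highest of the 18 libraries. Ifi47 was also highest there, at 1723 TPM against 1386 and 1454. The 3 immunity-related GTPases together summed to 4444 TPM in library 3 and to 4046 and 3938 TPM in libraries 1 and 2.

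The same library stood out for markers of other cells. Its summed neutrophil markers were 227 TPM, against 1.43 and 14.5 in libraries 1 and 2, its macrophage and monocyte markers 362 against 112 and 163, and its endothelial markers 122 against 30.7 and 49.8. The part of these in the guanylate-binding levels was not tested. With LPS 3 taken from libraries 1 and 2 only, an alternative chosen after these values had been seen, the log2 change was 6.64 for Gbp2 (limma adjusted p = 0.00389), 5.16 for Gbp5 (limma adjusted p = 0.00167) and 1.93 for Gbp4 (limma adjusted p = 0.0213). All 6 members were still called higher there.

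**Figure D3:**
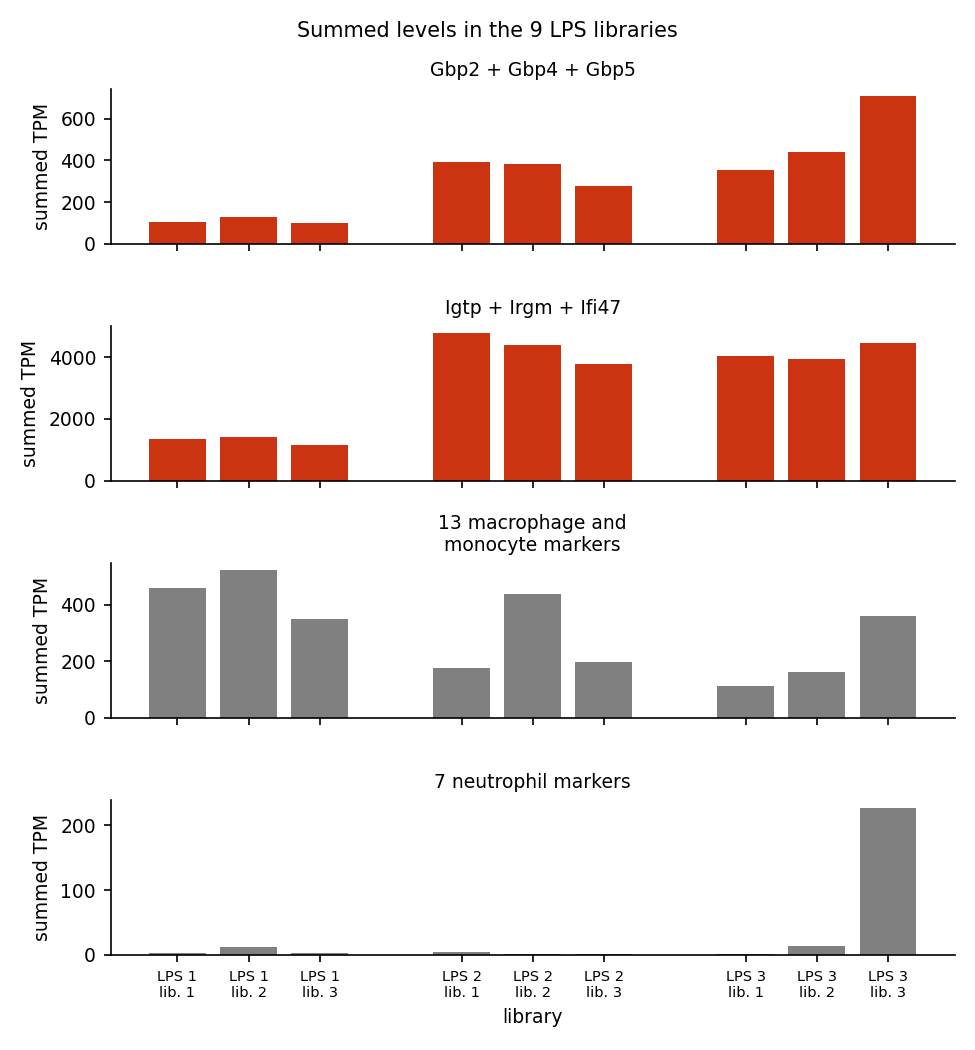
Summed TPM of the 3 guanylate-binding proteins and of the 3 immunity-related GTPases in the 9 LPS libraries, beside summed neutrophil and macrophage markers. Library 3 of LPS sample 3 is highest for the guanylate-binding proteins (706 TPM) and for neutrophil markers (227 TPM), and the LPS 1 libraries are lowest for both GTPase families.

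The plot of the 9 LPS libraries also shows the macrophage markers of LPS sample 1, which were 460, 522 and 352 TPM. Sample 1 had low levels of all 6 GTPases and macrophage sums above those of most libraries of LPS 2 and 3. Library 2 of LPS 2 (440.5 TPM) and library 3 of LPS 3 (362 TPM) were above library 3 of LPS 1. The part of macrophages in the GTPase levels was not tested.

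Marker lists placed the tissue. Principal cell markers such as Aqp2 summed to 15350 to 16980 TPM per sample in Vehicle and to 9102 to 12620 TPM in LPS. Of the 7 principal cell markers 4 were called lower, against 22.2% of all genes. Median-ratio scaling called 0 of them lower and quantile normalization 3. Intercalated cell markers summed to 4478 to 5123 TPM in Vehicle and 3270 to 4497 TPM in LPS. Proximal tubule markers stayed at 18.3 to 62.1 TPM over all samples. Of immune cells, macrophage and monocyte markers summed to 123 to 253 TPM in Vehicle and 212 to 445 TPM in LPS. Of 10 tested, 5 were called higher (Cd14, Adgre1, Fcer1g, Tyrobp and C1qa), against 7.17% of all genes. Csf1r was called lower, against 22.2%. The calls of C1qa and Csf1r were lost with median-ratio scaling. Neutrophil markers summed to 0.0933 to 0.47 TPM in Vehicle and 2.17 to 81.1 TPM in LPS, and S100a8 was listed at 0 in every Vehicle library. S100a8 and S100a9 were called higher here and under neither scaling. Neutrophil genes Mpo and Elane, macrophage genes Cd163 and Mrc1 and the T cell genes Cd3e, Cd3d, Cd3g and Cd8a had means under 0.5 TPM. Gzmb, of cytotoxic T and NK cells, was called higher (0.0489 to 2.16 TPM, log2 change 1.18, limma adjusted p = 0.0360), a call lost under both scalings, and T and NK cell markers summed to 2.81 to 8.65 TPM over all samples. Gzmb, S100a8 and S100a9 were under 1 TPM in Vehicle and passed the filter only through the LPS group. Endothelial markers summed to 22.8 to 105 TPM in Vehicle and 28.7 to 68.1 TPM in LPS. No listed marker was at 0 in all 18 libraries, and the part of any of these cells in the GTPase levels was not tested.

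A search by symbol or annotation text found 15 rows of the wider GTPase family, of which 9 are not among the 6 genes. Of the 15, 13 were tested and 12 were called higher, against the 7.17% of all tested genes, and none was called lower. The 6 further genes that rose are near relatives. RGD1305184, annotated as the Ifgga4 protein, rose from 0.418 to 251 TPM (mean of 3 samples), with a log2 change of 7.17 (SE 0.555, limma adjusted p = 0.000691). MGC108823, annotated as Interferon-inducible GTPase 1, rose from 1.44 to 265 TPM, a log2 change of 6.74. LOC685067, annotated as guanylate-binding protein 4, rose from 0.453 to 137 TPM, a log2 change of 6.20, and so was far more abundant than the row with the symbol Gbp4.

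MGC105567, annotated as the Ifgga5 protein, rose from 0.357 to 72.4 TPM, a log2 change of 5.59. Gbp1 and Gbp6 stayed low and still rose, Gbp1 from 0.09 to 6.24 TPM (log2 change 2.47, limma adjusted p = 0.0140) and Gbp6 from 0.0467 to 3.85 TPM (log2 change 2.12, limma adjusted p = 0.00720). Of these 6, 5 were under 1 TPM in Vehicle and passed the filter only through the LPS group. RSEM assigns reads that match several transcripts by estimation, and levels of these close paralogs, Gbp4 and Gbp2 included, are uncertain where their sequences match.

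Irgq, a quasi-GTPase of the same family that is not known as interferon-inducible, was the tested relative that was not called. It had 3.47, 2.89 and 4.84 TPM in Vehicle and 2.42, 1.85 and 2.09 TPM in LPS, a log2 change of -0.54 (SE 0.243, limma adjusted p = 0.122). Gbp3 and Irgc were at or under 0.127 TPM in every sample and were not tested. In RefSeq, the windows of Irgq and Irgc held none of the 5 motifs searched, while Gbp1 held ISRE matches. Gbp6, which rose, held no IRF element match. Its 2 kappaB matches overlap on opposite strands, at -154 to -145 and -153 to -144, and so mark a single place.

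The 6 genes made up 91.4% of the summed TPM of the 15 rows in Vehicle and 83.2% in LPS. These figures leave out RGD1309362, a relative that the search missed and that is given under the other observations. The sum of the 15 rows was 81.0 ± 12.5 TPM (SD, n = 3) in Vehicle and 4309 ± 2277 TPM (SD, n = 3) in LPS.

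**Figure D4:**
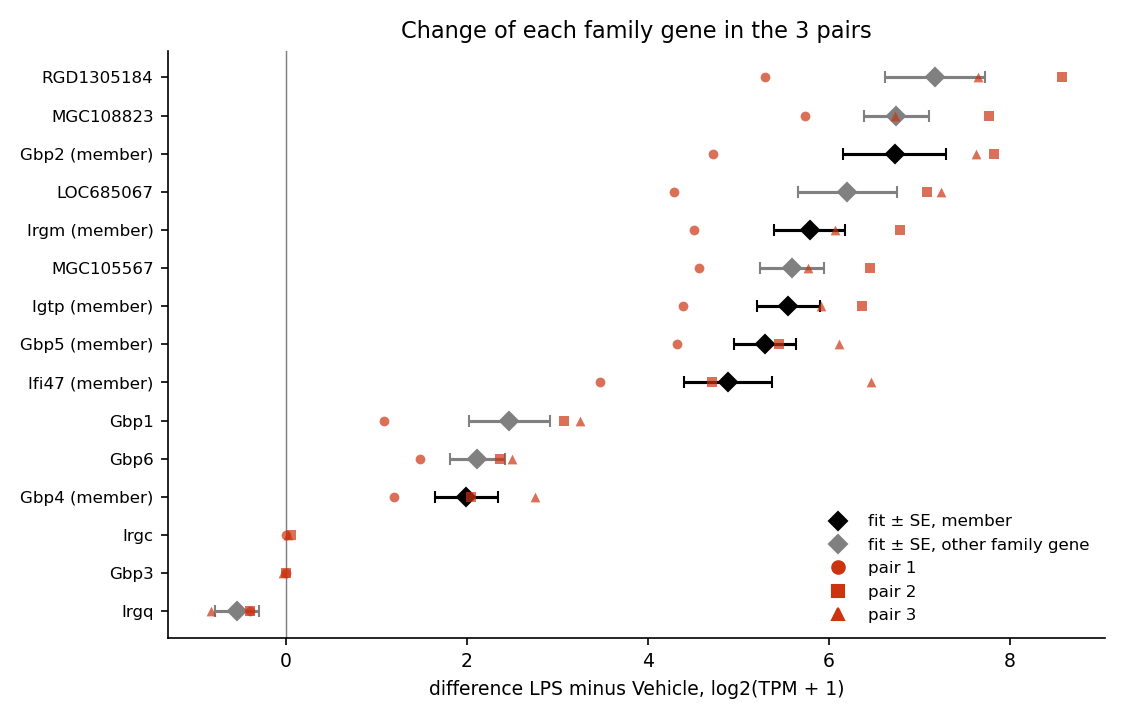
Difference between LPS and Vehicle on the log2(TPM + 1) scale for the 15 rows of the GTPase family, with the 3 numbered pairs as coloured points and the fitted value with its standard error as a black (the 6 genes) or grey (relatives) diamond, drawn for tested rows only. The 12 rows called higher lie to the right of 0, and Irgq at -0.54 was not called.

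In the plot of family changes, Gbp4, Gbp1 and Gbp6 form the low end of the called genes, with log2 changes of 1.99, 2.47 and 2.12. The other 9 called rows lie between 4.88 and 7.17.

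The genes whose profile over the 6 sample means lay nearest to the members' mean profile were Tnfsf10, Cd40, Dhx58, Cfb, Batf, Samd9, Parp14 and Sphk1. The measure was the root mean square distance of centred log2 levels, and it was 0.18 for Tnfsf10, a death receptor ligand, 0.18 for Cd40, a receptor of the TNF family, and 0.20 for Dhx58, a sensor protein for viral RNA. On the same measure Gbp5 lay at 0.19 from the mean profile and Igtp at 0.30, whereas Gbp2 lay at 0.90 and Gbp4 at 1.54. Gbp5 and Igtp thus lay nearest to the mean profile, and Gbp2 and Gbp4, the 2 ends of the range, furthest from it. Each member is itself part of that mean. Levels were centred but not scaled, so the distance also reflects the size of the change, which is compressed for Gbp4. All these values come from the same 18 libraries.

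Genes that act before or beside the GTPases were read from 6 lists, and the counts follow in the order of the pathway. Of 16 genes of interferon signalling, 13 were tested, 9 were called higher, against 7.17% of all genes, and none lower, and the median log2 change of the 13 was 1.77, against -0.38 over all genes tested. The ligands were near absence. Ifng was listed at 0 in every Vehicle library and had 0.963, 0 and 0 TPM in LPS 1, 2 and 3, and Ifnb1, also at 0 in Vehicle, had 0, 0.463 and 0.243 TPM. Ifna4 had 0.09, 0 and 0 TPM in LPS. These 3 were below the filter and were not tested.

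Of the 4 receptor chains, 2 were called higher. Ifnar2, a chain of the type I interferon receptor, rose from a mean of 10.5 to 41.3 TPM (log2 change 1.74, limma adjusted p = 0.00925), while its partner Ifnar1 was not called (15.7 to 25.2 TPM in Vehicle and 17.2 to 21.0 TPM in LPS). Ifngr2 rose from 20.2 to 21.9 TPM across Vehicle samples to 48.9 to 71.1 TPM across LPS samples, while Ifngr1, the ligand-binding chain for interferon gamma, was not called (45.1 to 52.7 TPM in Vehicle and 42.1 to 52.4 TPM in LPS).

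All 4 IRF genes on the list, Irf1, Irf2, Irf8 and Irf9, rose. Irf9, a DNA-binding factor of the type I interferon response, had a log2 change of 2.11 (limma adjusted p = 0.00118), Irf2 of 1.77 (limma adjusted p = 0.00189) and Irf8 of 2.88 (limma adjusted p = 0.00200). Irf1, named after its values had been seen because it binds the ISRE, had 110, 18.4 and 24.5 TPM in Vehicle and 658, 2561 and 2030 TPM in LPS. Its log2 change was 5.52 (SE 0.649, limma adjusted p = 0.00340), and its LPS samples had the same order as those of Igtp and Irgm. Stat2, a factor that acts with Irf9, had a log2 change of 2.17, and Socs1, an inhibitor of the pathway, of 6.25. Irf2, Irf8, Stat2 and Socs1 had that order of LPS samples too, and Irf9 did not. The share of all genes with that order was not worked out. Jak2 was called higher here but not with median-ratio scaling or quantile normalization.

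The autophagy conjugation genes, whose products help to place these GTPases on vacuoles, were near the background. Of 10 tested, 3 were called lower, against 22.2% of all genes, and none higher, and their median log2 change was -0.47, against -0.38. The 3 were Atg3 (-0.75), Gabarapl1 (-0.65) and Atg16l1 (-0.71). The direction depends on scaling, since median-ratio scaling called 0 lower and 1 higher and quantile normalization 1 lower and 0 higher. Without the replicate block 6 were called lower.

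Of 10 vacuole adaptor genes tested, 5 were called higher, against 7.17% of all genes, and 2 lower, near the 22.2% of all genes. The median log2 change of the 10 was 0.36, against -0.38. Isg15, a ubiquitin-like modifier, went from 43.0, 9.73 and 25.6 TPM to 1338, 2114 and 2283 TPM, a log2 change of 6.40. The other ubiquitin-like gene, Ubd, had a log2 change of 7.83, and the ubiquitin ligases Trim21 and Rnf213 had 2.82 and 2.92. Rnf213 had a Vehicle mean under 1 TPM and passed the filter only through the LPS group. The receptor Optn rose by 0.96, and Nbr1 (-0.75) and Calcoco1 (-1.01) fell, though no gene of the list was called lower under either scaling.

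Of 11 inflammasome genes 8 were tested, of which 4 were called higher and 1 lower, against 7.17% and 22.2% of all genes. Their median log2 change was 1.01, against -0.38. Casp4, Gsdmd and Il18 had Vehicle means under 1 TPM and passed the filter only through the LPS group, so the count rests partly on that. Casp4, the caspase that binds intracellular LPS with the help of guanylate-binding proteins, had 0.953, 0.793 and 0.763 TPM in Vehicle and 8.82, 26.9 and 47.2 TPM in LPS. Its log2 change was 3.70 (SE 0.436, limma adjusted p = 0.00341), and its LPS samples had the order of Gbp2, Gbp4, Gbp5 and Ifi47. Casp1 and Gsdmd had that order too. Il1b (4.32) and Casp1 (2.67) also rose, as did Gsdmd, from 0.54 to 1.47 TPM across Vehicle samples to 3.17 to 4.79 TPM across LPS samples. Il1b differed from the GTPases in being highest in LPS 1, at 70.9 TPM against 29.3 and 30.4 TPM. Pycard fell by 0.81 on the log2 scale, a call that neither scaling kept, and Aim2, Nlrp3 and Gsdme were below the filter.

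For the enzymes that attach or process lipid anchors, 6 were tested and 1, Zmpste24, was called lower (-0.53), a call lost under both scalings. That count is near the 22.2% of all genes, and their median log2 change of -0.30 is near the overall -0.38. The atlastins, GTPases of the dynamin superfamily that do not respond to interferon as far as is known, gave 2 tested genes and no call, with 1 of the 2 at an unadjusted p under 0.05 (limma) and 1 called lower without the replicate block.

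**Figure D5:**
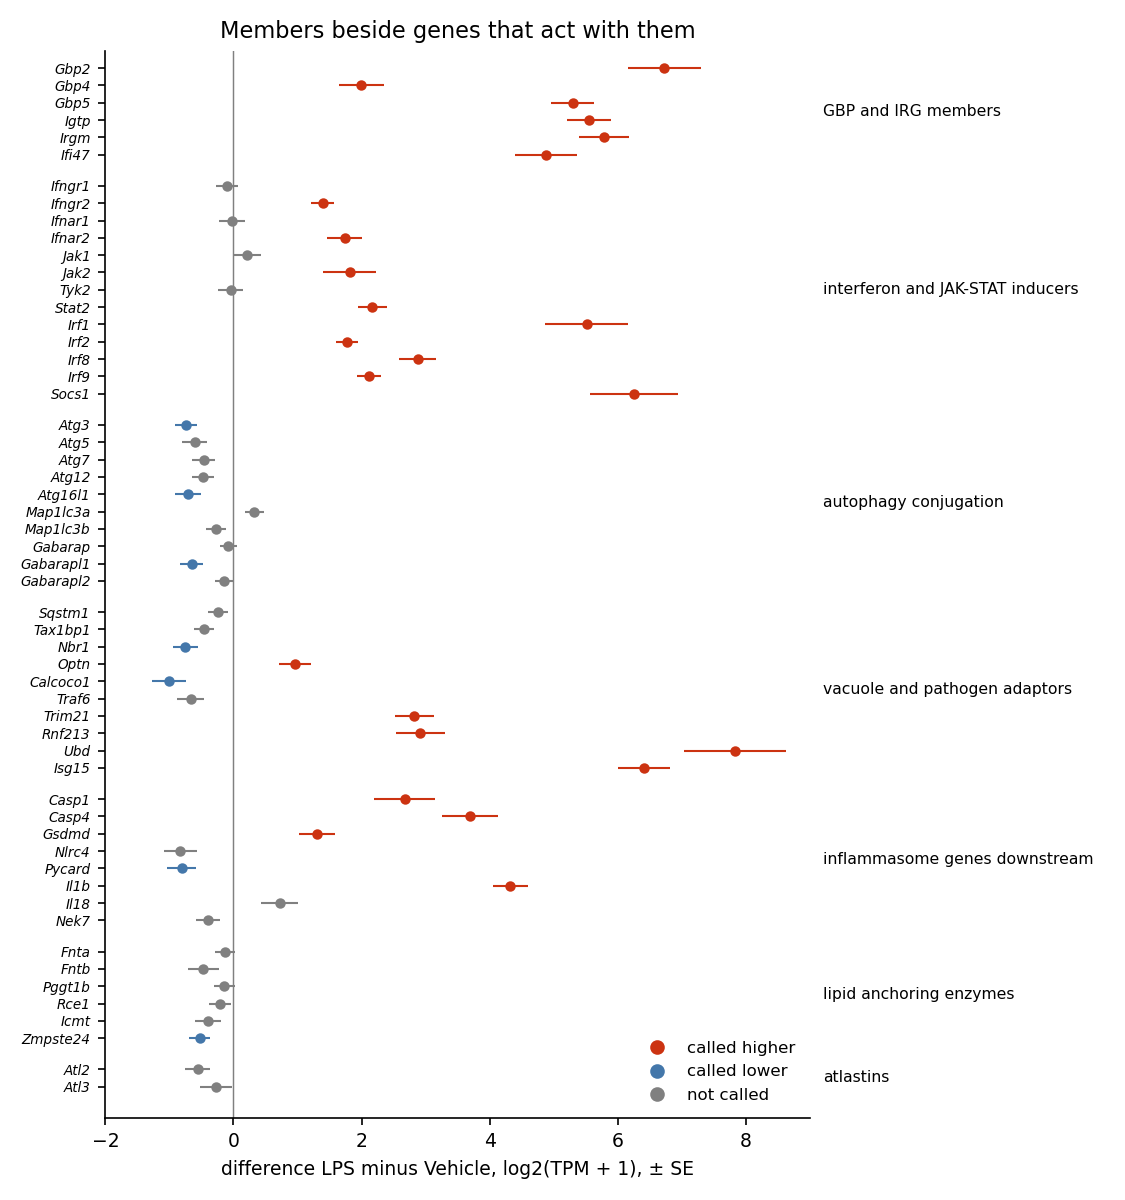
Difference between LPS and Vehicle on the log2(TPM + 1) scale, with standard error, for the 6 GTPases and each tested gene of the 6 lists, coloured by call. Of the interferon signalling genes 9 of 13 were called higher, against 7.17% of all genes, and of the autophagy conjugation genes 3 of 10 were called lower, near the 22.2% of all genes.

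In the plot of the GTPases beside these lists, genes with a larger change than that of Gbp4 occur in the interferon signalling, vacuole adaptor and inflammasome lists and in no other list. The median of all genes tested was -0.38, and with median-ratio scaling it was -0.01. With that scaling all 6 members and the same 12 family rows were still called higher.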

How the data were processed

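TPM values for 32883 Ensembl genes in 18 libraries were deposited by the authors as 1 table. The submitters' processing notes name STAR 2.7.9a, RSEM 1.3.3 and Rnor_6.0. No annotation release or filter is named in the sources used here. TPM does not keep read numbers, so the depth of each library is unknown and counting error cannot be given. Column names beginning with N were read as normal saline and L as LPS.

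Each numbered sample counted as 1 replicate, with log2(TPM + 1) averaged over its 3 libraries. The 12393 genes with a mean of 1 TPM or more were compared by limma 3.58.1 in R 4.3.3, with sample number as block, a variance trend, two-sided moderated tests and Benjamini-Hochberg adjustment. The design calls the samples paired, although deviations of same-numbered samples correlated at only 0.06, -0.02 and 0.07. The script was checked on simulated data. Alternatives were 15 planned ones and 1 added after the data had been seen. The 6 genes, the gene lists and the tests were chosen with earlier results of these data known. The rule for naming genes from a list took up to 4 called genes with the smallest p and listed genes at 0. Others (receptor chains, Irf1, Socs1, Jak2, Optn, untested genes) were named after their values had been seen. Promoter windows came from RefSeq (GRCr8) and were searched for the motifs in Python. A result on a gene of interferon signalling is not reported here. No Rnor_6.0 annotation was used here, so no gene coordinates are given for the expression table.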

Additional observations from a re-analysis of the deposited data

How the results depend on the processing

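The direction of all 6 members held under each of the 16 alternatives run (15 for Gbp4, which a filter at 5 TPM removes), but the calls did not. With the median over the libraries of a sample, 0 genes were called higher, 0 lower and 0 members (limma), although 1019 genes higher, 4167 lower and 6 members had an unadjusted p under 0.05. The log2 changes were then 6.67 for Gbp2, 2.01 for Gbp4, 5.30 for Gbp5, 5.61 for Igtp, 5.82 for Irgm and 4.84 for Ifi47, with adjusted p from 0.0545 to 0.0790. With no filter on low values 18 genes were called higher, 2 lower and 0 members, with 6 members at an unadjusted p under 0.05. The changes were 6.72, 1.99, 5.29, 5.55, 5.79 and 4.88 in the same order and the adjusted p ran from 0.0501 to 0.101, with more genes tested. Leaving out each numbered pair gave 0 to 1004 genes higher, 0 to 3595 lower and 0 to 6 members. Without pair 3 there were 0 calls (738 genes higher, 1463 lower and 6 members at an unadjusted p under 0.05) and members' adjusted p ran from 0.196 to 0.231. Without pair 2, 419 genes were higher and 296 lower. Leave-out changes ran from 6.17 to 7.73 for Gbp2, 1.62 to 2.40 for Gbp4, 4.88 to 5.78 for Gbp5, 5.14 to 6.13 for Igtp, 5.29 to 6.42 for Irgm and 4.09 to 5.58 for Ifi47.

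Genes called lower numbered 458 with median-ratio scaling, 558 with quantile normalization and 5295 with all 18 libraries fitted, against 2757, and genes called higher 851 and 797 under the 2 scalings, against 889. Without the replicate block 912 genes were higher and 3624 lower, and all 6 members were called (adjusted p from 0.000463 to 0.0141), so the pairing changed no member's call. Where an alternative ended a call, the cause was not tested. With no filter the members' unadjusted p was itself larger. It ran from 0.000114 (Gbp5) to 0.00368 (Gbp4), against 9.83e-07 (Igtp) to 0.000775 (Gbp4) in the main fit (limma). Depth is unknown, and levels under 1 TPM, such as Gbp4 and Gbp5 in Vehicle, have no counting error attached.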

Other observations

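RGD1309362, a row that RefSeq lists with the synonym Ifgga1 and that the family rule did not find, was looked up after the other values had been seen. It rose from 0.691 to 113 TPM (means of 3 samples), with a log2 change of 5.77 (SE 0.501, limma adjusted p = 0.00117).

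The genes next to the members on the chromosomes were also read after the values had been seen. In RefSeq order Gbp5, Gbp4 and Gbp2 lie in 1 cluster on chromosome 2, Irgm and Ifi47 lie together on chromosome 10, and Igtp lies elsewhere on chromosome 10. None of the 10 tested protein-coding neighbours outside the family was called (limma), against 7.17% higher and 22.2% lower of all genes tested. Beside the guanylate-binding cluster, Pdlim5 had a log2 change of -0.13, Bmpr1b of -0.53, Kyat3 of -0.28 and Gtf2b of 0.34. Beside Irgm and Ifi47, Trim41 had -0.16 and Zfp62 -0.38. Beside Igtp, Mrpl22 had -0.22, Gemin5 -0.29, Zfp692 -0.56 and Zfp672 0.16.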
